A study of Mus musculus with 6 samples.

Results

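The chromatin profile described here is that of untreated colon group 2 innate lymphoid cells (ILC2s), as 2 CUT&Tag libraries labelled Control, out of 6 libraries in the series. ILC2s had been sorted from mouse gut, kept in culture with IL-2 and IL-7, which sustain lymphocytes, plus the alarm cytokines IL-25 and IL-33, and sorted again before library preparation. The Control cells therefore carried the same growth and activating cytokines as the other groups, and they received neither succinate nor FK866, which blocks NAMPT, the enzyme that recycles nicotinamide into NAD. The FK866 and the FK866 plus succinate libraries were not used here. The mouse strain, its age, and whether the libraries came from separate animals or cultures are not stated in the labels, so the agreement between the libraries may be technical.

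Members were chosen from the peak lists by a fixed rule. A peak was kept when its q (the adjusted p of the peak in its own library, deposited as -log10 q) was below 0.05 on chromosomes 1 to 19, X and Y, and when it overlapped a kept peak of the other library by at least 1 bp. The rule left 22726 of 50489 peaks in Control 1 and 22639 of 41023 peaks in Control 2. Their merged spans gave 22445 shared regions over 33.2 Mb of mm10. A protein-coding gene counted as covered when a shared region touched its span plus 2 kb on either side, and as empty when no peak of any strength in either list did so. Of 21887 genes 13858 were covered (63.3%), 6467 were empty (29.5%) and 1562 had only weak or unshared peaks (7.14%).

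ILC2s are tissue lymphocytes without rearranged antigen receptors. They respond to alarm cytokines of the epithelium such as IL-33 and IL-25 and answer with the type 2 cytokines IL-5 and IL-13, which recruit eosinophils and stimulate mucus secretion. Their identity depends on the transcription factors GATA3 and RORα. CUT&Tag directs a transposase to an antibody on chromatin, so that DNA around the bound protein or histone mark is cut, amplified and sequenced. Which protein or mark the antibody recognised is not given in the labels used here. A peak is therefore only a stretch enriched for that target, and an empty gene only one without such a stretch. In a population of cells, a lower peak in every cell and a peak in fewer cells cannot be told apart.

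Promoters of the loci on which the description turns are printed below from RefSeq (GRCm38.p6), each from 250 bases before to 50 bases after a listed start, on the strand of the gene. The 5 marker genes come first, followed by Cish, the gene with the largest share covered among windows over 10 kb, Srp9, one of the strongest loci, and Alb, an empty liver gene. Capitals mark the matches, on either strand, to 9 short motifs. They are GATAA of GATA factors, TGANTCA of AP-1, TGACGTCA of CREB, CCGGAA of ETS factors, CCAAT of NF-Y, GGGCGG of SP1, CACGTG of the E-box, TTCNNNGAA of STAT factors and TATAA of the TATA box. The windows lie at chr2:9878551-9878850 for Gata3 (minus strand), chr9:68653536-68653835 for Rora (plus), chr1:40429320-40429619 for Il1rl1 (plus), chr11:53720544-53720843 for Il5 (plus), chr11:53634653-53634952 for Il13 (minus), chr9:107296409-107296708 for Cish (plus), chr1:182124487-182124786 for Srp9 (plus) and chr5:90460620-90460919 for Alb (plus).
Gata3: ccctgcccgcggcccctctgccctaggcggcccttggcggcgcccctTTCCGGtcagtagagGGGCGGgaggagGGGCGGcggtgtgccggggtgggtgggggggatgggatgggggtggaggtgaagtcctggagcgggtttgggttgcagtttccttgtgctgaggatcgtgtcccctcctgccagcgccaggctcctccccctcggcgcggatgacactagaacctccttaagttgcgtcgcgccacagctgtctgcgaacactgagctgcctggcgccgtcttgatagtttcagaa
Rora: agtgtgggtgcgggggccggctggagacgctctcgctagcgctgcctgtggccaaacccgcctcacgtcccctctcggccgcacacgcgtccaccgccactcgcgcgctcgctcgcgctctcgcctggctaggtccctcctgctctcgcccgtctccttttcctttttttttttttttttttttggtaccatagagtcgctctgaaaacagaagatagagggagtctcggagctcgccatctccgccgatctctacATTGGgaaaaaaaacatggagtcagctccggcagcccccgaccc
Il1rl1: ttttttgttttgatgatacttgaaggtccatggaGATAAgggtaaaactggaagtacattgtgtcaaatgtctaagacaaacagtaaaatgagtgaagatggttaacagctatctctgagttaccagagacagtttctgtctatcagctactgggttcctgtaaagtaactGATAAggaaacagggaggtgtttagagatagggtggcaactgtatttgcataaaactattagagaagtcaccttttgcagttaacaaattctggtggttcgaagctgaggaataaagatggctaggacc
Il5: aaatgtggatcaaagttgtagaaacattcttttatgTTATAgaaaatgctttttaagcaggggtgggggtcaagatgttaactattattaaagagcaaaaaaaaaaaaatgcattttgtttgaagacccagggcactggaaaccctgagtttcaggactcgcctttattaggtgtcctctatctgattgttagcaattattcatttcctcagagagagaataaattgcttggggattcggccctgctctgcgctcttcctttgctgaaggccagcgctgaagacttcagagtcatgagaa
Il13: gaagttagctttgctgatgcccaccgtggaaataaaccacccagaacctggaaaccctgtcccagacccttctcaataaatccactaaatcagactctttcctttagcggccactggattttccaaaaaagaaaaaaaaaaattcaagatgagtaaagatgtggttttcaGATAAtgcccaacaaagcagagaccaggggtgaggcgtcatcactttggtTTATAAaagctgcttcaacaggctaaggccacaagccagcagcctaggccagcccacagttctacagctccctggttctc
Cish: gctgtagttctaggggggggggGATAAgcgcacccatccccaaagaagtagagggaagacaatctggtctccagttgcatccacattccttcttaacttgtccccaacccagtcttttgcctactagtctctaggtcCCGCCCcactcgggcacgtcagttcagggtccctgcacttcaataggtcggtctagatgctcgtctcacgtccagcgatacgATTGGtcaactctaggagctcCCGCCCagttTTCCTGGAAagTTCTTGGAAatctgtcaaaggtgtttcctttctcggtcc
Srp9: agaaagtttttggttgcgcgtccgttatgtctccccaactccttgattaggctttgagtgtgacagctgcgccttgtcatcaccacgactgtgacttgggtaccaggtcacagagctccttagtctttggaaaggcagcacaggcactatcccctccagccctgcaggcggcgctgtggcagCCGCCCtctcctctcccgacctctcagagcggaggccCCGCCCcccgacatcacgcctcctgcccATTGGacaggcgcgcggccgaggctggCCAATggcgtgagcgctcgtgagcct
Alb: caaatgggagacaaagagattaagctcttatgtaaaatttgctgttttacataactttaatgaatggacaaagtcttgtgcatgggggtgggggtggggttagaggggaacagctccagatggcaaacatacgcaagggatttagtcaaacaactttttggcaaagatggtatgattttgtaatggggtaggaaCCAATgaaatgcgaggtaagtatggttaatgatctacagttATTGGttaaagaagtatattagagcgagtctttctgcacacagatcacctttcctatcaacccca
The 5 marker promoters fell into 2 kinds. Those of the transcription factors were rich in CpG, with 22 CpG in the window of Gata3 and 28 in that of Rora, while those of the receptor and the cytokines held 1 CpG (Il1rl1), 4 (Il5) and 3 (Il13). The median over all 21263 listed starts of protein-coding genes was 13. Il13 had a TATAA match whose first base lay at position -29 relative to the start, Il1rl1 had GATAA at -216 and -79, and Cish had a pair of TTCNNNGAA matches at 0 and 11 around its start. A match is a description of the letters, and whether a factor binds there was not measured. Peaks covered all 300 bp of the Gata3, Il1rl1, Il5 and Cish windows in both libraries. They covered 300 and 237 bp of the Srp9 window, 300 and 106 bp of the Il13 window and 207 and 282 bp of the Rora window, and none of the Alb window.

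The libraries agreed in most of their kept peaks. Of the kept peaks, 83.6% in Control 1 and 80.1% in Control 2 were shared. Shared peaks had median widths of 1287 and 1303 bp and kept peaks without a partner of 494 and 462 bp. The kept peaks of the lists had a base-pair Jaccard index (shared over total bases) of 0.728. Across the shared regions, the percentile of -log10 p within a library correlated between libraries with a Pearson r of 0.952 and a Spearman rank coefficient of 0.971, a description across regions that are not independent and that were chosen for being present in both lists. The threshold passed through a dense part of the lists. The weakest kept peaks had a q of 0.04999 in Control 1 and 0.0497 in Control 2 and the strongest rejected ones 0.0507 and 0.0501, and 3558 and 4831 kept peaks had a q between 0.01 and 0.05.

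The deposited fold and p of each peak also gave back its height. With a whole number of overlapping fragments at the summit, a local background solved from the deposited fold, and a Poisson tail, the deposited -log10 p was recovered within 0.01 for 99.9% of peaks in Control 1 and 100% in Control 2, and for every kept peak in both lists. The lowest background was 1.85 fragments per position in Control 1 and 2.14 in Control 2, and 39.3% and 28.5% of peaks had it. It was taken to stand for the whole library, which could not be checked without the settings of the peak caller. On that reading, heights in Control 2 run higher at equal enrichment. Shared peaks had a median height of 64 fragments in Control 1 and 72 in Control 2. Heights are whole-library values that were not scaled between libraries, and they are printed for both.

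**Figure D1:**
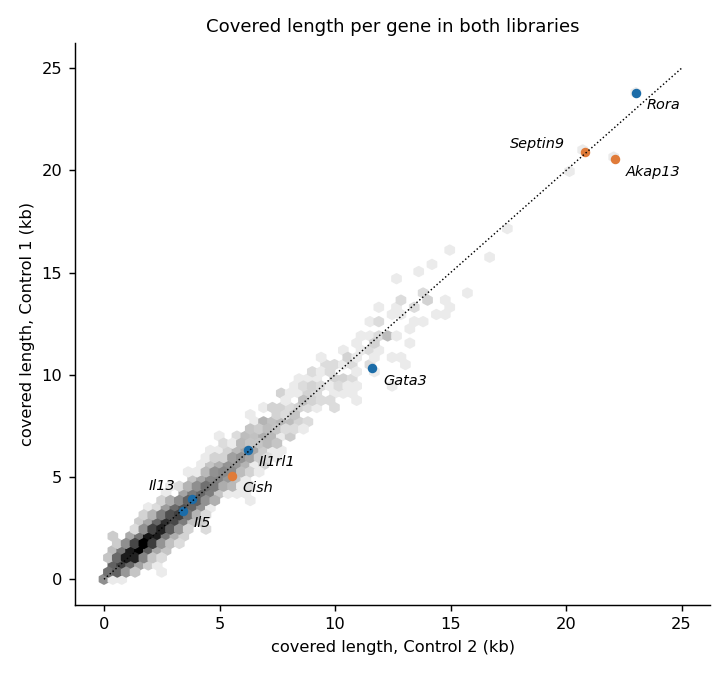
Covered length per covered gene (bases of shared peaks inside the gene span plus 2 kb, in kb) in Control 1 (vertical) against Control 2 (horizontal), as cells shaded by the number of genes, with the 5 marker genes in blue, Akap13, Septin9 and Cish in orange, and the line of equality dotted. Genes lie along the line, and Rora stands at its end with 23805 and 23022 bp.

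All 5 ILC2 marker genes were covered, against 63.3% of all genes. Each had a listed start inside a shared region, against 56.7% of all genes with a listed start. Mean covered lengths were 23414 ± 554 bp at Rora, 10963 ± 922 bp at Gata3, 6271 ± 67.2 bp at Il1rl1, 3856 ± 70.7 bp at Il13 and 3382 ± 49.5 bp at Il5 (SD, n = 2). This spread rests on shared peaks only and does not test the order of the genes. Window lengths also differed, with 738843 bp at Rora and a median of 34876 bp over the 5 markers. Gata3, the master regulator of the lineage, had 10311 and 11615 bp of peaks in 7 shared regions. In 6 of them the summit exceeded 100 fragments in both libraries. The region over its start (chr2:9878173-9879893) reached 243 and 303 fragments in Control 1 and Control 2. Among all peaks of the library it lay at percentiles of 96.6 and 97.4 by height, but of 76.8 and 72.8 by -log10 p. Over the 5 markers the median best percentile by -log10 p was 78.4, against 87.2 over all covered genes. By height the median was 85.9, against 87.1. The tallest region in Control 1, 273 fragments against 296 in Control 2, was centred at -10967 bp from the start. The local background of the Gata3 start region was 109 and 130 fragments, beside a maximum of 110 and 130 over all peaks, and its fold was 2.21 and 2.32.

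Rora, which encodes RORα, had the longest covered length of all genes, 23805 and 23022 bp in 19 regions. They filled 3.17% of a window of 738843 bp. The region over its 1 listed start was weak, with 15 fragments in each library. The tallest region, with 199 and 239 fragments, was centred 636940 bp downstream of that start, at chr9:69289399-69292053. It belonged to 12 regions more than 600 kb downstream, which held 15132 and 15486 bp of the covered length. The table used here lists 1 start for Rora, and whether a start of a shorter transcript lies near the tallest region was not examined.

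The IL-33 receptor gene and the cytokine genes each had 1 wide region over the start. At Il1rl1, which encodes the receptor ST2, that region spanned 3972 bp (chr1:40429101-40433072) and reached 133 and 179 fragments. A second listed start of Il1rl1, at chr1:40439629, lay outside every shared region. At Il5 the region was 3633 bp wide (chr11:53719441-53723073) with 145 and 179 fragments. At Il13 it was 4009 bp wide (chr11:53630953-53634961), wider than the span of the gene itself, with 179 and 204 fragments. The median shared region was 1412 bp wide. By -log10 p these start regions had mean percentiles of 74.8 (Il1rl1), 78.7 (Il5) and 76.8 (Il13). The median best percentile over all covered genes was 87.2.

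**Figure D2:**
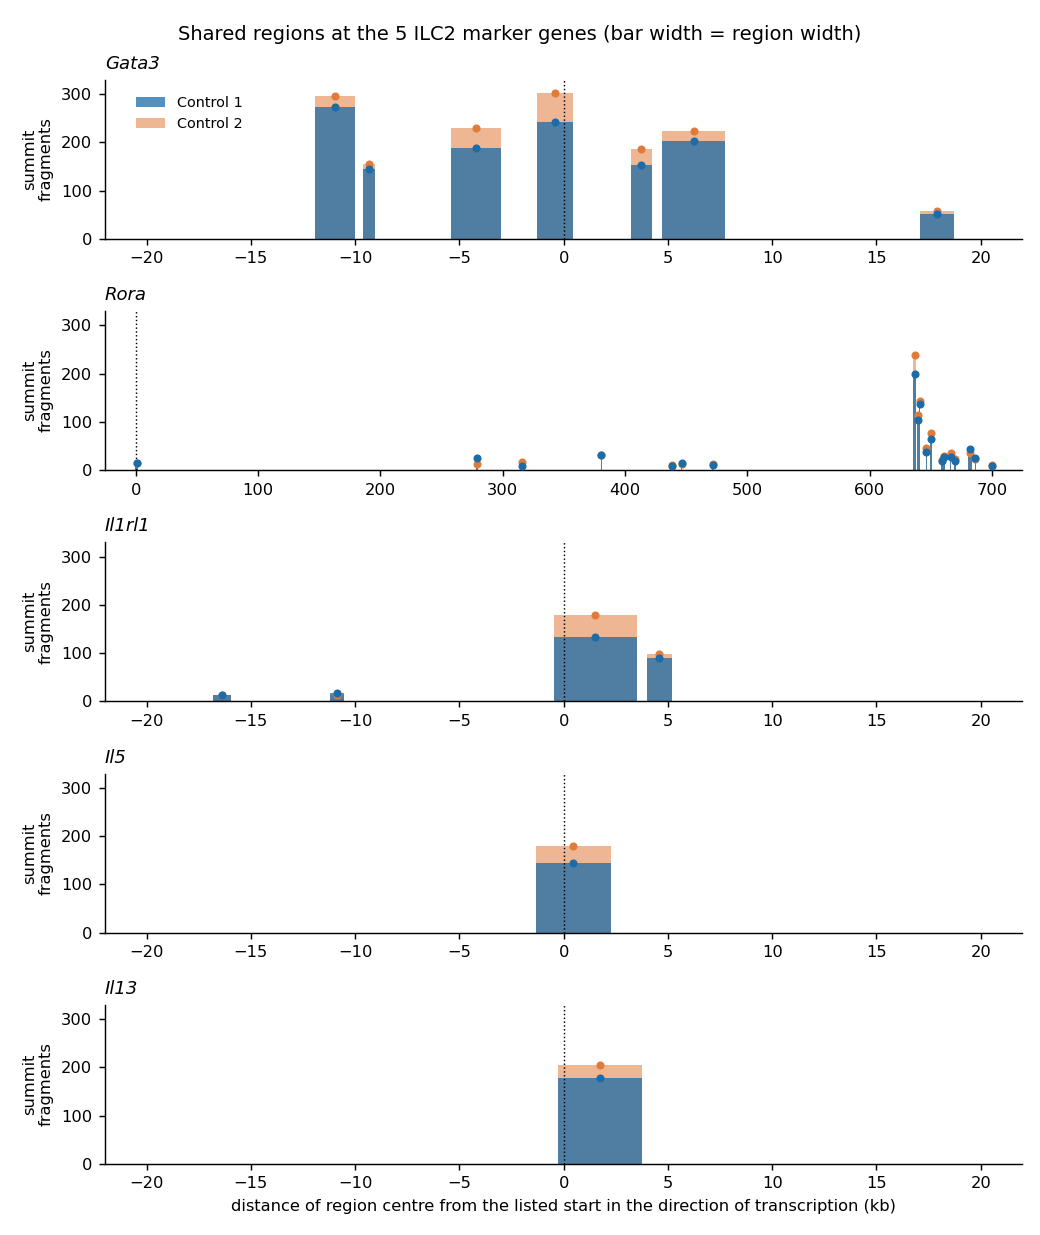
Shared regions at the 5 marker genes, 1 panel per gene, placed by the distance of the region centre from the listed start in the direction of transcription (kb, dotted line at the start), with bar width equal to region width and bar height equal to the number of fragments at the summit in Control 1 (blue) and Control 2 (orange), drawn over each other from 0. Gata3 carries tall regions on both sides of its start, Rora carries its tallest regions more than 600 kb from the listed start, and Il5 and Il13 carry 1 region each over the start.

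Of 27 ILC2 transcription factor genes 26 were covered (96.3%, against 63.3% of all genes), with a median covered length of 5110.5 bp against 1822 bp over all covered genes. Their windows were also long, 61346 bp in the median against 21169 bp over all genes. The median height percentile of the tallest peak was 91.5, against 87.1 over all covered genes, while the median best percentile by -log10 p ran the other way, 80.2 against 87.2. Bcl11b, needed for ILC2 identity, had 12893 and 12328 bp in 11 regions, but its listed start lay outside them. Ets1, a lymphoid factor, had 11885 and 12731 bp in 11 regions. Runx1 and Runx3, partners of lineage factors, had tallest peaks of 200 and 219 fragments and of 240 and 252 fragments in Control 1 and Control 2. Pparg, a lipid sensor that acts in activated ILC2s, had a tallest peak of 233 and 299 fragments. Id2, the inhibitor of E proteins common to innate lymphoid cells, had 2504 and 2609 bp, below the list median. Its tallest peak reached 282 and 285 fragments.

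At the low end of the list the factors differed in height. Zbtb16, which encodes PLZF of the common precursor, had 1 region of 783 and 805 bp with 12 and 16 fragments. Tcf7, encoding TCF-1, was the 1 uncovered factor. It had 6 and 5 listed peaks in the libraries, of which 1 and 3 passed the q threshold, and none overlapped between the lists. Ahr had 2411 and 2303 bp, below the list median of 5110.5 bp but above the 1822 bp over all covered genes. Its tallest peak had 259 and 315 fragments, so a covered length short for this list did not go with low height there. Of the 19 factor genes with a listed start, 16 had a start inside a shared region, against 56.7% of all genes with a listed start.

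Type 2 cytokine and effector genes were divided. Of 26 members 16 were covered, a share of 61.5% that lies near the 63.3% of all genes, 5 were empty and 5 had only weak or unshared peaks. Beside Il5 and Il13, Il4 of the same gene cluster had 3361 and 3296 bp with 208 and 255 fragments. Areg, the epithelial repair factor amphiregulin, had 2331 and 2343 bp with 176 and 221 fragments. Lif had 6449 and 6413 bp in 3 regions, and Il10 had 1 region of 3874 and 4081 bp. Csf2, encoding GM-CSF, was lower, with 59 and 65 fragments. Furin, a protease that processes cytokines and surface proteins, had the most covered bases of the list, 6643 and 6348.

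The uncovered members included 6 chemokine genes. Ccl1, Ccl3, Ccl4, Ccl5 and Ccl22 were empty. Ccl17, Il2, Il3, Penk and Tnfsf4 had only weak or unshared peaks. Il9, a cytokine of activated ILC2s, had 1 region of 366 and 203 bp with 17 and 13 fragments that did not contain its start. Il6 was also low, with 13 and 9 fragments. The covered members had a median height percentile of 75.1, against 87.1 over all covered genes, and a median best percentile by -log10 p of 75.6, against 87.2. The median window of this list was 9261 bp, shorter than the 21169 bp of all genes.

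Of 38 receptor genes 36 were covered (94.7%, against 63.3% of all genes), and 24 of the 28 with a listed start had it inside a shared region (85.7%, against 56.7%). By height the covered receptors had a median percentile of 80.5, against 87.1 over all covered genes, and by -log10 p of 77.9 against 87.2. Il2ra, the IL-2 receptor alpha chain, had 5937 and 6768 bp in 4 regions, and Il2rb had a tallest peak of 275 and 295 fragments. Il7r had a single region of 3321 bp over its start with 143 and 190 fragments. For the activating cytokines, Il17rb, the specific chain of the IL-25 receptor, had 89 and 110 fragments over its start, and Il17ra, its partner, had 214 and 237. Il1rap, the co-receptor of ST2, had 122 and 140. Among receptors for nerve signals, Nmur1, which binds neuromedin U, had 183 and 223 fragments over its start and Vipr2, a receptor of vasoactive intestinal peptide, 65 and 89.

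A few receptors stayed low. Ccr9 and Ccr6, homing receptors of gut lymphocytes, had 9 and 10 and 11 and 9 fragments in Control 1 and Control 2. Thy1, a surface marker of lymphocytes, had 15 and 13. Sucnr1, the receptor for extracellular succinate, was empty in both libraries, and Ptgdr2, the prostaglandin receptor CRTH2, had only weak peaks, none past the q threshold. Klrg1, a marker of mature ILC2s, had 3849 and 3564 bp in 4 regions with a tallest peak of 118 and 165 fragments.

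The signalling genes of the culture cytokines were covered without exception, 31 of 31, against 63.3% of all genes. Their median window was 29819 bp, against 21169 bp over all genes. Nfkb1, a subunit of NF-κB, had 15249 and 14191 bp in 13 regions and was among the 12 widest loci. Stat5b, which transmits IL-2 and IL-7 signals, had 7891 and 8231 bp in 6 regions, and its tallest region, 244 and 278 fragments, lay near the neighbouring start of Stat5a, which had the same values. Cish, a target gene and inhibitor of STAT5 signalling, had a single region of 5694 bp (chr9:107295628-107301321), within which peaks covered 5040 and 5532 bp, a mean of 52.2% of its window. Socs1, Socs2 and Socs3, the related inhibitors, reached 267, 280 and 239 fragments in Control 1, and 307, 318 and 324 in Control 2. Stat4, which transmits IL-12 signals, was the lowest by summit, with 83 and 96 fragments. Of 21 activation factor genes 19 were covered (90.5%, against 63.3% of all genes). Junb had 227 and 265 fragments and Egr1 313 and 328. Batf2 and Batf3 had no shared region, whereas Batf had 234 and 303 fragments over its start.

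Ranked by -log10 p, the 12 strongest places included, in order, Wls, Hjurp, Srp9, Cops3, Sertad3, Slc35e2, Lactb, Rnf14, H2az2, Zfp81 and Immt. The order depends on the ranking column and on the library. Of the 50 strongest genes, 29 to 34 remained with a single library, 12 when ranked by summit fragments (a setting added after seeing the data) and 4 when ranked by fold. The named genes include a chaperone of centromeric histone (Hjurp), a subunit of the signal recognition particle (Srp9), a subunit of the COP9 signalosome (Cops3), a histone variant (H2az2) and an organiser of mitochondrial cristae (Immt). The Hjurp region (chr1:88276067-88277860) had 461 and 586 fragments over a local background of 38.3 and 47.1. The Srp9 region (chr1:182124415-182125853) had 323 and 359 fragments over 19.3 and 21.8. Apart from Wls, the regions were between 1086 and 2297 bp wide. The Wls region was only 275 bp wide, had a fold of 34.5 in each library, and lay 739 bp outside the gene, 99892 bp from the nearest listed start.

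By covered length the widest locus, Rora, was followed by Akap13, Septin9, Bcor, Rapgef2, Gse1, Ppm1h, Ccdc88c, Nfkb1, Sema4d, Atxn1 and Etv6. Akap13, an anchor protein of kinase A, had 20536 and 22136 bp in 16 regions. Bcor, a corepressor, had 19821 and 19985 bp in 10 regions over 15.6% of its window. Septin9 had 20907 and 20841 bp, and Etv6, an ETS repressor of blood cells, 13327 and 14808 bp. Their windows ran from 111315 to 738843 bp. Of the 12 strongest and the 12 widest loci, no gene stood in both. Among 13858 covered genes, lists this short would seldom meet, so this says little about either ranking.

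As single regions, the 10 widest lay at Brd2 with H2-DMa, Cytip, Cish, Furin, Nrm with Ppp1r18, Zbtb25 with Zbtb1, Pim1, Hnrnpl, Marcks and Trim8. The widest spanned 5921 bp over Brd2, a bromodomain reader of acetylated histones, at chr17:34117990-34123910, with 290 and 384 fragments over a local background of 106 and 127. Pim1, a kinase induced through STAT5, had a region of 5061 bp with 263 and 274 fragments. Cytip, a lymphocyte adaptor, had one of 5884 bp with 181 and 226. Among covered genes with a window over 10 kb, the share covered was highest at Cish (52.2%), Lfng (46.2%), Akt1s1, Tmsb4x (44.6%) and Tbc1d10c (43.4%), followed by Mrps18b, Mvd, Mafg, Brd2 and Ache.

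Width and -log10 p parted at the top of the range. The p of a peak weighs its summit against the local background, and both were high in wide regions. The 71 regions of 4 kb or wider (0.316% of all) had a median percentile of 78.5 by -log10 p and none above 84.9. By the number of fragments at the summit their median percentile was 92.7, with a range from 74.8 to 99.6. Their median height was 216 fragments in Control 1 and 260 in Control 2, over a median local background of 60.6 and 73.4. The 368 regions at a percentile of 99 or more by -log10 p had a median height of 269 and 312 fragments over a local background of 20.9 and 24.9, a median width of 1496 bp and a maximum of 2610 bp. Over all shared regions the median height was 65 and 74 fragments and the local background 8.39 and 9.64. The wide regions of Brd2 and Cish were tall in fragments and low in fold, and a ranking by p placed them below narrower regions of similar height.

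**Figure D3:**
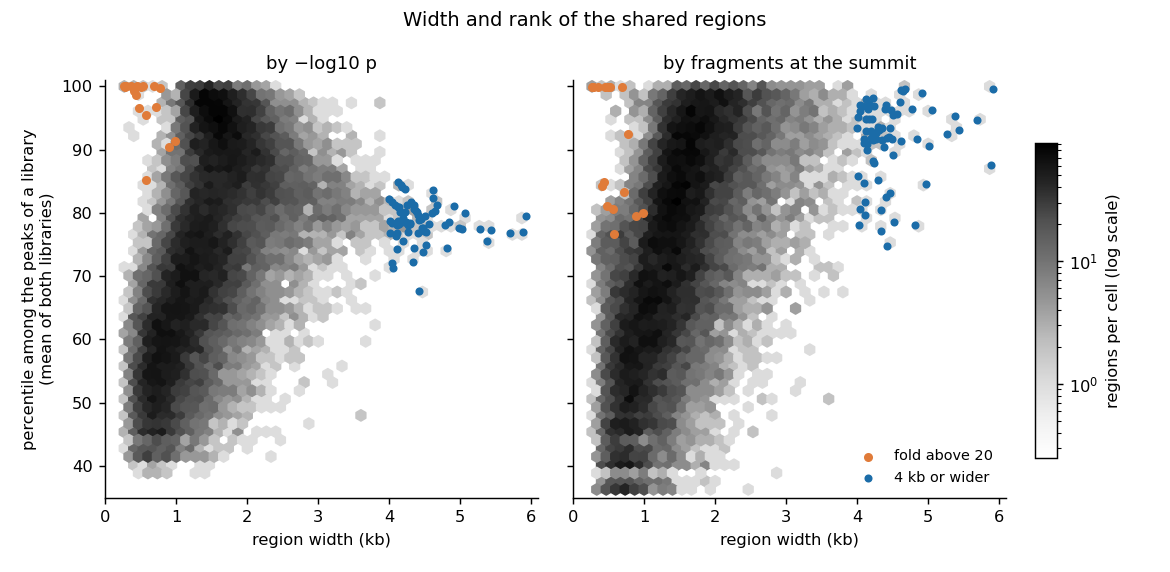
Width (kb) of the 22445 shared regions against their percentile among the peaks of a library, by -log10 p (left) and by fragments at the summit (right), as means of both libraries and as cells shaded by the number of regions, with the 71 regions of 4 kb or wider in blue and the 17 regions with a fold above 20 in orange. The widest regions stay under a percentile of 84.9 on the left and reach 99.6 on the right.

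Some of the strongest regions were far from protein-coding genes. The 6 strongest more than 2 kb from any such gene were nearest to Mrgprd, Gm45871, Fgf14, Tmem196, Csf2ra and 9530057J20Rik, at distances from 7421 to 186537 bp. The strongest of all, chr7:145340932-145341456, was 525 bp wide with 2131 and 2231 fragments. Those nearest to Gm45871 and Fgf14 had 1639 and 1808, and 1367 and 1477 fragments in Control 1 and Control 2. The regions nearest to Mrgprd, Gm45871, Fgf14, Tmem196 and Csf2ra shared narrow width and high fold with the Wls region. The region nearest to 9530057J20Rik did not, at 1406 bp and a fold of 14.3 and 14.9. Of 17 regions with a mean fold above 20, the widest was 978 bp and 11 lay outside genes. The treatment of reads that align to more than 1 place is not stated in the labels, and a part of repeated sequence in these regions was not tested.

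Shared regions were often near gene ends. Of the 22445, 12190 (54.3%) came within 2 kb of where a protein-coding gene begins or ends, 6071 (27.0%) lay deeper in a gene and 4184 (18.6%) outside all of them. With the kept peaks of a single library the share near a gene end was 46.4% to 47.9%. Regions near gene ends were wider (a median of 1622 bp, against 1157 bp inside and 1076 bp outside genes). With the regions ordered by percentile and divided into 10 equal bins, 92.1% of the strongest bin and 19.3% of the weakest were near a gene end. The median width was 1587 bp in the strongest bin and 808 bp in the weakest, and highest in between, at 1831 bp in bin 8.

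Starts were marked just downstream. On the chromosomes with listed starts, 39.3% of summits lay within 500 bp of a start in each library and 44.9% within 2 kb. Among the latter the median offset was 146 bp downstream of the start in Control 1 and 149 bp in Control 2, with 79.0% and 79.4% of summits downstream. Of 17492 genes with a listed start 9918 had one inside a shared region (56.7%), and of the covered genes with a listed start 89.1%. Among 2761 genes with 2 or more listed starts, 1245 had all of them inside, 846 some and 670 none.

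CpG content of the promoter, which the rule did not use, went along with coverage. The share of starts inside a shared region was 93.1% in the bin with the most CpG and 2.40% in the bin with the fewest, of 10 bins of starts ordered by CpG. Starts inside a shared region had a median of 22 CpG per 300 bp, against 13 over all starts, and starts of empty genes had 2. GGGCGG, the letters of an SP1 site, occurred in 69.0% of windows of starts inside a shared region, against 46.2% of all windows and 12.6% at empty genes. CCGGAA, an ETS core, occurred in 29.6%, against 18.7% of all windows and 4.50% at empty genes. TATAA ran the other way, in 11.4% of starts inside a shared region, against 21.9% of all and 41.9% at empty genes. All 9 motifs were counted on both strands, and those of SP1, of ETS factors and of the E-box contain a CpG themselves, as does that of CREB.

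**Figure D4:**
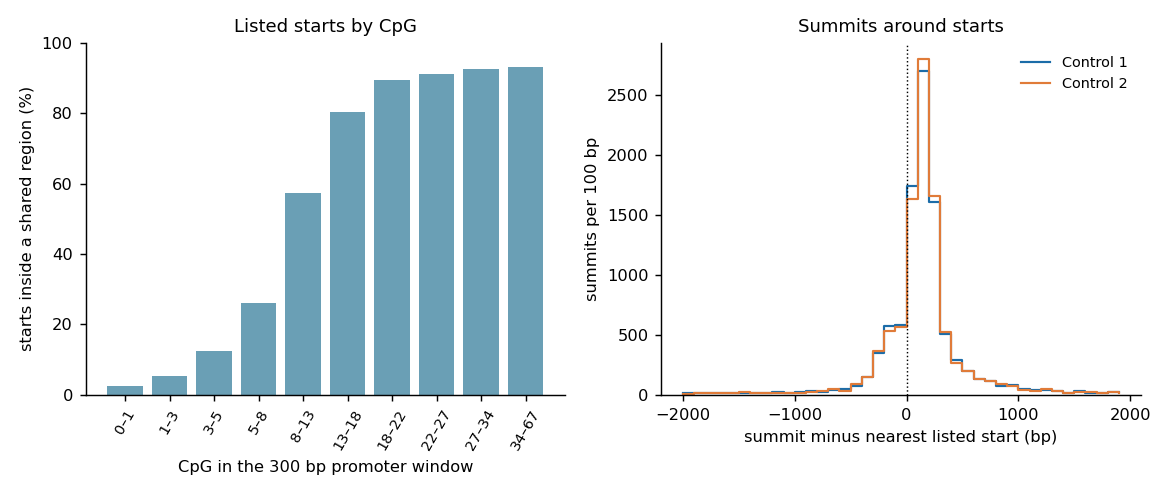
Left, the percent of listed starts that lie inside a shared region, in 10 bins of starts ordered by the number of CpG in the 300 bp promoter window (range of CpG under each bar). Right, the number of summits per 100 bp around the nearest listed start (bp, positive downstream) in Control 1 (blue) and Control 2 (orange). The share is 93.1% in the bin with the most CpG, and summits of both libraries peak between 100 and 200 bp downstream.

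Some ILC2 genes were marked at starts with few CpG. Only 355 starts of 317 genes with up to 4 CpG lay inside a shared region, against 5680 such starts that did not. Chosen after their values were seen, examples are Il13, Il1rl1, Il5, Il4, Il7r, Nmur1 and Ccr8, with regions between 3321 and 4009 bp. Others were Gpr55 and Gpr65, a lipid and a proton receptor, and Srgn, a proteoglycan of secretory granules. Wide regions were not particular to ILC2 genes here. Il2ra, Csf2 and Il6 had narrower ones over such starts, of 1029, 2434 and 1247 bp. The widest were at Aebp2 and Gm5544, with 4469 and 4332 bp. The regions over starts with up to 4 CpG had a median width of 1666.5 bp and a median percentile of 77.5. GATAA, the letters of a GATA site, occurred in 31.5% of the windows inside regions and in 39.9% of the low-CpG windows outside them.

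Genes of basic metabolism and division were covered throughout. All 20 housekeeping, 23 TCA cycle, 21 glycolysis, 24 cell cycle and 78 mitochondrial ribosomal protein genes had a shared region. The share over all genes was 63.3%. TCA cycle genes had a median best percentile by -log10 p of 96.1 and a median covered length of 1703.5 bp, against 87.2 and 1822 bp over all covered genes. Idh3a, a subunit of isocitrate dehydrogenase, had 282 and 317 fragments in a region with 1221 and 1271 covered bp. Hk1, the first enzyme of glycolysis, had 6098 and 6549 bp with 354 and 358 fragments, and Pkm, pyruvate kinase, 4597 and 5216 bp. Ldhb, the heart-type lactate dehydrogenase subunit, was the lowest of the glycolysis list with 17 and 23 fragments. Of 21 genes of NAD synthesis 18 were covered (85.7%, against 63.3% of all genes). Nampt, the target of FK866, had 2123 and 2120 bp with 179 and 238 fragments over its start. Tdo2 and Kynu, enzymes of tryptophan breakdown, were empty.

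Among markers of innate lymphoid relatives, 10 of 18 ILC1 and NK genes (55.6%) and 5 of 13 ILC3 genes (38.5%) were covered, against 63.3% of all genes, and the first share lies near that of all genes. Their summed covered length was 21.6 and 22.6 kb, and 8.88 and 8.82 kb, in Control 1 and Control 2. A listed start lay inside a shared region at 6 of 16 ILC1 and NK genes (37.5%) and 3 of 11 ILC3 genes (27.3%), against 56.7% of all genes. Klrb1c, Klrk1, Klrd1 and Ncr1, receptors that define NK cells and ILC1s, were empty. Tbx21, encoding T-bet, had 15 and 22 fragments, and Eomes 53 and 60. Il17a and Il23r were empty. Il12rb1, a receptor chain for IL-12 and IL-23, reached 234 and 274 fragments.

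Of 20 T cell genes 12 were covered, with 22.6 kb in each library, a share of 60% near the 63.3% of all genes. Cd247, the zeta chain that natural killer receptors also use, had 4528 and 4211 bp. Cd3d had 76 and 98 fragments at its tallest peak, with its listed start outside, while Cd3e had only weak peaks and Cd8a none. Cd3g had a start inside a shared region of 1739 bp, with a fold of 4.18 and 4.87. By -log10 p the covered T cell genes had a median best percentile of 79.1, against 87.2 over all covered genes. Foxp3, of regulatory T cells, had no shared region. A listed start lay inside a shared region at 6 of the 16 T cell genes that have one (37.5%, against 56.7% of all genes). Of 15 B cell genes 7 were covered (46.7%, against 63.3% of all genes, 8.41 and 9.39 kb). Only 1 of the 11 with a listed start had it inside a shared region (9.09%). The covered ones included Cd79a with 290 and 302 fragments and Pax5 with 26 and 26, while Ms4a1, Blnk and Jchain were empty. Of 20 myeloid genes 9 were covered (45%, 11.4 and 10.3 kb), and 2 of the 14 with a listed start had it inside a shared region (14.3%). Xcr1 had 206 and 260 fragments and Cebpa 69 and 74, while Itgax, Adgre1 and S100a9 were empty. Of 11 mast cell and basophil genes 2 were covered (18.2%), Hdc and Mitf. Cpa3, Fcer1a, Ms4a2 and the mast cell proteases Mcpt1, Cma1 and Mcpt8 were empty.

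Non-lymphoid markers followed. Of 20 colon epithelial genes 6 were covered (30%, against 63.3% of all genes, 9.52 and 7.91 kb). They included Epcam, with 106 and 98 fragments in a region that did not contain its start. Muc2, Car1 and Cdx1 were empty. Of 15 stromal and endothelial genes 5 were covered (33.3%) and of 15 neuron and glia genes 8 (53.3%). Liver genes had 1 of 15 covered (6.67%), Apoa2, which shares its region with another gene, and muscle and heart genes 2 of 15 (13.3%). What part other cells in the sort play in any of these peaks was not tested. Of 35 developmental regulators 23 were covered (65.7%, near the 63.3% of all genes), with a median height percentile of 70.8 against 87.1 over all covered genes. Pax6, an eye and brain factor, had 5258 and 4634 bp with 69 and 65 fragments. Of 39 Hox genes 29 were covered (74.4%, against 63.3% of all genes), and 8 of these shared their best region with another gene. Only 9 of the 22 Hox genes with a listed start had it inside a shared region (40.9%, against 56.7%). Their median height percentile was 70.3, against 87.1, and their median best percentile by -log10 p 70.9, against 87.2.

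**Figure D5:**
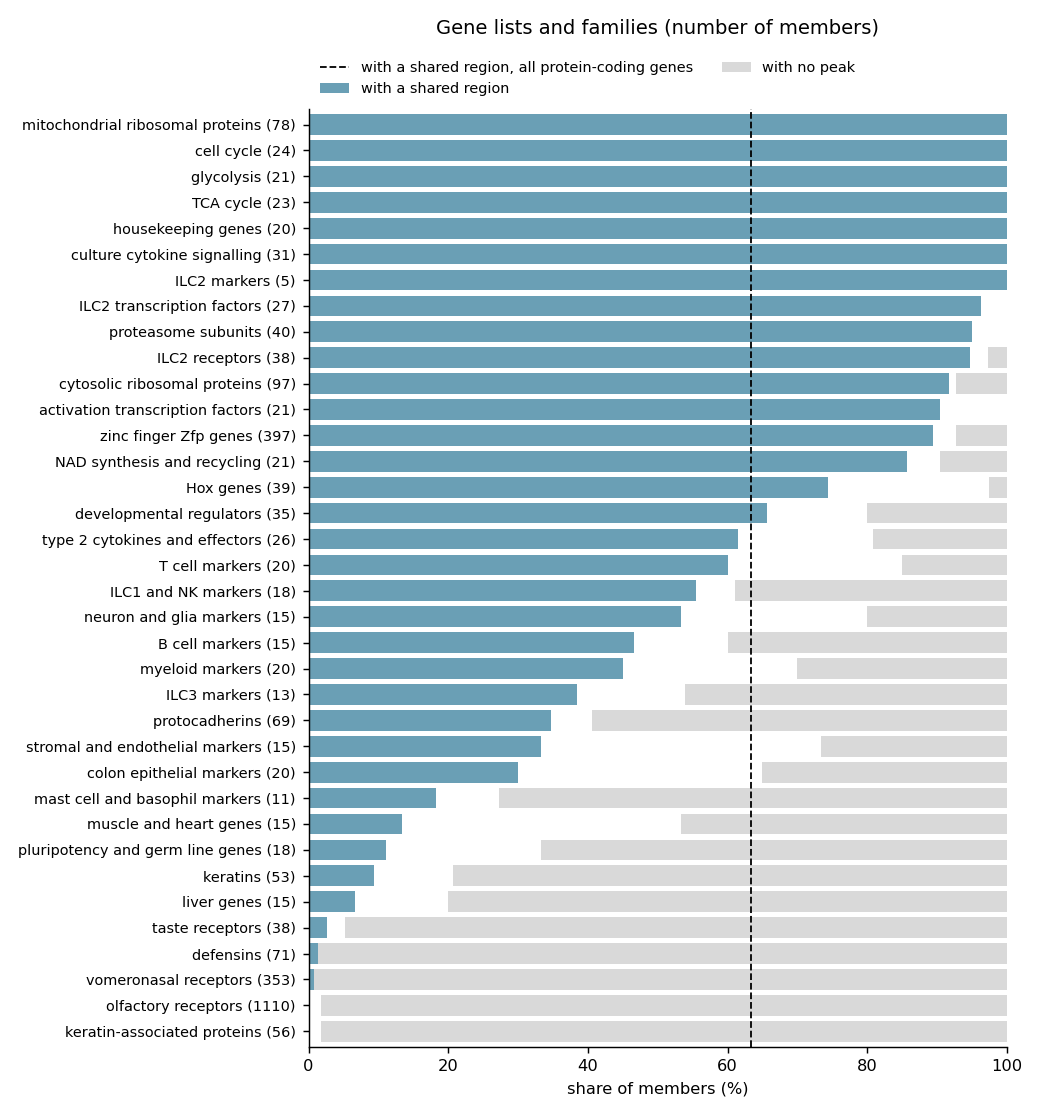
Share of the members of each gene list or family (number of members in brackets) that had a shared region (blue, from the left) or no peak of any strength in either library (grey, from the right), with the share over all protein-coding genes, 63.3%, as a dashed line. ILC2 transcription factors, receptors and metabolic lists lie right of the line, and olfactory and vomeronasal receptors, defensins and keratin-associated proteins lie at the left edge.

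Some receptor and structural gene families were almost wholly empty. Of 1110 olfactory receptor genes 1090 were empty (98.2%, against 29.5% of all genes) and 1 was covered. None of the 944 with a listed start had it inside a shared region. Of 353 vomeronasal receptor genes 350 were empty (99.2%), of 71 defensin genes 70 (98.6%), and of 56 keratin-associated protein genes 55 (98.2%). Median windows of these families were short, from 4833 to 5868 bp, against 21169 bp over all genes. How reads that align to more than 1 place were treated is not stated in the labels, and its part here was not tested. Empty genes had shorter windows than covered ones, a median of 10318 bp against 27272.5 bp. The longest empty genes had longer windows than every covered locus named above. They were Cntnap2, Lrp1b, Csmd1, Nrxn3, Robo2, Pcdh15, Dpp10, Il1rapl1, Naaladl2 and Lrrc4c, with windows from 2245333 to 1317504 bp. Neither library had a peak of any strength in any of these 10 windows.

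Chromosomes differed in coverage. On the autosomes the share of covered genes ranged from 53.0% on chromosome 7 to 73.3% on chromosome 11. On chromosome X it was 42.4%, with 511 of 966 genes empty. On chromosome Y 5 of 256 genes were covered and 251 were empty.

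Of 1005 miRNA hairpins 126 (12.5%) touched a shared region. Those of lymphocyte interest, chosen after their values were seen, are printed as mature RefSeq sequences with the seed (bases 2 to 8) in capitals, to show which share a seed.
miR-142a-5p: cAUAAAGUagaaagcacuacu
miR-142a-3p: uGUAGUGUuuccuacuuuaugga
miR-148a-3p: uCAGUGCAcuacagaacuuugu
miR-152-3p: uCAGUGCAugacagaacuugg
miR-132-3p: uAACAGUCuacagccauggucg
miR-212-3p: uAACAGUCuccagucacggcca
miR-29a-3p: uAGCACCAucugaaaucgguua
miR-29b-3p: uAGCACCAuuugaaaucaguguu
The pairs miR-148a and miR-152, miR-132 and miR-212, and miR-29a and miR-29b share a seed within each pair. The region over Mir148a (chr6:51269662-51271373) was the strongest of these, at percentiles of 93.0 and 89.6 with a fold of 10.8 and 9.93. The region over Mir152 lay at 79.6 and 76.9. Mir132 and Mir212 shared a region of 1208 bp, at percentiles of 78.8 and 72.5. Mir29a and Mir29b-1 shared one of 1094 bp, where the libraries lay apart, at 64.4 in Control 1 and 38.99 in Control 2. The region over Mir142, a miRNA of blood cells, spanned 1582 bp (chr11:87756265-87757846) at percentiles of 74.9 and 69.1. A region over a hairpin does not show whether the RNA is made.

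Some genes had peaks in 1 library only. Kept peaks without a peak of any strength in the other list were found at 108 genes in Control 1 and 69 in Control 2. The strongest were at Gm12657 and Gstp2 in Control 2, with percentiles of 98.2 and 84.2, and at Ifnk, Myadml2, Bex6 and Ephb1 in Control 1, between 82.6 and 67.9. Over covered genes, where only shared peaks count, the median SD of the covered length was 73.5 bp.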

How the data were processed

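CUT&Tag of sorted, cultured colon ILC2s was deposited as 1 peak list per library. The submitters' processing notes name cutadapt 1.9, Bowtie2 2.5.0 and the build mm10. No label names the peak caller, its settings or the antibody. The deposited columns used were the fold (a ratio of summit to local background), the -log10 p and the -log10 q of each peak, all made by the authors within 1 library. The authors deposited no read counts. Depth was therefore read only from the lowest local background, recovered here as 1.85 and 2.14 fragments per position, and could not be checked. Summit heights and local backgrounds were solved from the deposited fold (summit plus 1 over background plus 1) and -log10 p (Poisson tail), with a tolerance of 0.01. The next whole number of fragments deviated by at least 0.00987. No count interval or test was built on them.

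Groups were taken from the labels, and only the 2 Control libraries entered. Only 1 group enters, so values are descriptions with no p-value. Overlaps, covered lengths and percentiles (rank of -log10 p among all peaks of a library on 21 chromosomes) were computed in Python 3.11.15 (numpy 2.4.6, pandas 2.3.3) and tested on simulated data. Genes, starts, promoters and miRNAs came from RefSeq tables of GRCm38.p6, which has the chromosome coordinates of mm10. Starts were listed for 17492 of 21887 protein-coding genes and for none on chromosome 18. Members and gene lists were chosen with earlier results of these data known. Named genes were the 5 markers, uncovered ILC2 genes, the highest and lowest members of each list by covered length, the first loci of each ranking, the longest empty genes and the strongest genes of 1 library only. Members described by summit height or by role were chosen after their values were seen. Alternatives were other thresholds, overlaps, flanks, ranking columns and each library alone. Peaks outside the 21 chromosomes were left out. A few named loci are not reported here.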

Additional observations from a re-analysis of the deposited data

Results flagged for a closer look

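Peaks on sequences outside the 21 chromosomes were not used above, and signal was present there. The mitochondrial sequence carried 8 and 6 peaks in Control 1 and Control 2, of which 4 in each library passed the q threshold, with a highest fold of 4.86 and 5.50. Unplaced sequences carried 44 and 47 peaks. Their part in the depth of the libraries was not tested. No group here holds 4 or more samples, and no second contrast was available.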

How the results depend on the processing

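The counts of shared regions (20336 to 29400 over the settings tried), covered genes (13524 to 14390) and empty genes (6201 to 7333) stayed within 1.5 times the values given. The median width was 1471 bp at a q below 0.01 and 1222 bp with no threshold, and 1105 to 1145 bp in single lists. The share near a gene end was 50.7% at 1 kb, 61.3% at 5 kb, 58.0% at a q below 0.01, 56.4% with 50% overlap, and 46.4% to 47.9% in single lists. Of the 50 strongest genes, 4 remained when ranked by fold and 12 when ranked by summit fragments, and 29 to 34 in single lists. Without regions of a mean fold above 20, 49 remained. This last setting and the summit ranking were chosen after seeing the data. Of the 50 widest genes, 0 remained when ranked by the share of the window, 47 without a flank, 42 with no q threshold and 42 to 43 in single lists. Of 216 counts over 36 lists and families, 206 stayed within 1.5 times. Covered length at the markers moved with the setting, from 20956.5 to 26312 bp at Rora and from 9419.5 to 11615 bp at Gata3. It ran from 5369.5 to 7859.5 bp at Il1rl1, from 3380 to 5266 bp at Il13 and from 2034 to 3824 bp at Il5. The median CpG of starts inside regions was 22 in each setting run, which were added after seeing the data. Only 2 libraries measure the spread. No paired analysis was possible because only 1 group enters.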
